A study of Mus musculus with 24 samples.

Results

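The genes described here are 10 genes of de novo lipogenesis, the making of fatty acids from carbohydrate, in mouse liver. They were chosen by symbol from the 22429 genes of the count table: Fasn, Acly, Acaca, Acacb, Me1, Elovl5, Elovl6, Srebf1, Mlxipl and Thrsp. All 10 passed the filter on low counts, which left 12690 genes for testing.

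Lipogenesis starts with citrate leaving the mitochondrion. Acly (ATP citrate lyase) splits it into acetyl-CoA, Acaca and Acacb (acetyl-CoA carboxylases) turn acetyl-CoA into malonyl-CoA, and Fasn (fatty acid synthase) builds palmitate from both, using NADPH that Me1 (malic enzyme) helps to supply. Elovl6 lengthens palmitate and Elovl5 lengthens polyunsaturated fatty acids. The malonyl-CoA made by Acacb at the mitochondrial membrane restrains fatty acid entry for oxidation. In liver the pathway is switched on by feeding, through insulin and SREBP-1c, a product of Srebf1, and through glucose and ChREBP, the product of Mlxipl, and Thrsp (Spot 14) encodes a small protein that goes with lipogenic states.

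Polyadenylated RNA was sequenced from livers of male mice of an F1 hybrid strain, C57BL6J/FVBN, in 6 groups of 4 libraries. The mice were wild type or Ercc1 d/-, in which 1 copy of Ercc1, a DNA repair gene, is shortened and the other is lost in all tissues, and which ages prematurely. Wild-type mice were fed freely until 16 weeks of age (the fed wild type), fed freely until 104 weeks (the old wild type), or restricted by 30% and sampled at 16 weeks (the restricted wild type). Mutant mice were fed freely until 7 weeks (the young mutant) or 16 weeks (the fed mutant), or restricted by 30% and sampled at 16 weeks (the restricted mutant). All were housed singly on the same synthetic pellets (AIN93G). Freely feeding wild-type mice ate 3.0 g a day and mutants 2.3 g, so that the fed mutant took in little more than the 2.1 g of the restricted wild type, and the restricted mutant was given 1.6 g. Restriction began at 7 weeks with 10% and stood at 30% from 9 weeks. Food came just before the dark phase, and none was given on the day of sacrifice before the liver was taken. The design has no wild-type group of 7 weeks. Samples carry a number within their group, but the labels do not state that they are different animals, and the p-values therefore reflect variation among samples that may in part be technical.

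Libraries held 13.3 to 20.6 M counts, and the hepatocyte markers Alb, Apoa1, Ttr, Cps1, Hnf4a and Tat together stood at 52580 to 144200 CPM, the counts of a gene scaled to the same total in each library. Genes of the mitochondrial genome took 12.5 to 16.9% of counts in the 8 restricted libraries and 8.6 to 11.8% in the 16 others. Ercc1 itself lay between 1.08 and 2.33 CPM in the 12 mutant libraries and between 2.06 and 4.46 CPM in the 12 wild-type libraries. Its ranges overlapped, and whether reads from the shortened allele are counted is not given in the sources used here. Markers of adipocytes, the other cell type in which lipogenesis genes are abundant, were near the floor. Their summed level over 6 markers was 3.41 to 10.0 CPM in the fed wild type, 3.37 to 5.65 in the restricted wild type, 4.00 to 16.2 in the old wild type, 6.87 to 8.40 in the young mutant, 3.31 to 5.48 in the fed mutant and 8.81 to 11.1 in the restricted mutant, nearly all of it from Fabp4. Lep had 0 counts in all 24 libraries, Retn 4, Plin1 31 and Adipoq 46. In RNA from whole liver, fewer cells of a type and less RNA per cell cannot be told apart.

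The start regions of the genes whose values the results turn on are shown first. Fasn and Acly stand for the genes that varied together between libraries, Acacb and Elovl5 for those that were lower in the fed mutant than in the fed wild type, and Mlxipl for the regulators. Each sequence runs from 250 bases before to 50 bases after a RefSeq transcription start on GRCm38.p6, 5′ to 3′ on the strand of the gene. Capitals mark matches to the CCAAT box (CCAAT, or ATTGG on the other strand), the GC box (GGGCGG or CCGCCC) and the E-box (CACGTG), the core letters bound by USF and by ChREBP.
Fasn, chr11:120824498-120824797, reverse strand: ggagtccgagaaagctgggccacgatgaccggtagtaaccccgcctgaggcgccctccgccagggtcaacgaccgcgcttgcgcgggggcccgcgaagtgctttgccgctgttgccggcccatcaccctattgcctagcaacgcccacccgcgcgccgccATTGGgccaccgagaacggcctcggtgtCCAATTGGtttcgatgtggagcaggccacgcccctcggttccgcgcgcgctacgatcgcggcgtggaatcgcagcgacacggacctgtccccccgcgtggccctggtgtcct
Acly, chr11:100527951-100528250, reverse strand: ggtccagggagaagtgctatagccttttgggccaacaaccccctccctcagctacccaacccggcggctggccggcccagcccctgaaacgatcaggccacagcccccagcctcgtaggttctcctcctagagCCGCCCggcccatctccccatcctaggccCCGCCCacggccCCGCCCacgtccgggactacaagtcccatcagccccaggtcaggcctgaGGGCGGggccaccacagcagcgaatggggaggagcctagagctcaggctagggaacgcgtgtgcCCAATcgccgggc
Acacb, chr5:114165268-114165567, forward strand: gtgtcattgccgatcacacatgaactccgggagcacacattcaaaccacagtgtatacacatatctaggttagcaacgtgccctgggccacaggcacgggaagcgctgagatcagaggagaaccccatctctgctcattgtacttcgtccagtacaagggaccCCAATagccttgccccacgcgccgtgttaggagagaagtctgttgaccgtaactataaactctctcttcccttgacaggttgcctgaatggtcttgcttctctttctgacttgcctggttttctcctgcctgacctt
Elovl5, chr9:77917115-77917414, forward strand: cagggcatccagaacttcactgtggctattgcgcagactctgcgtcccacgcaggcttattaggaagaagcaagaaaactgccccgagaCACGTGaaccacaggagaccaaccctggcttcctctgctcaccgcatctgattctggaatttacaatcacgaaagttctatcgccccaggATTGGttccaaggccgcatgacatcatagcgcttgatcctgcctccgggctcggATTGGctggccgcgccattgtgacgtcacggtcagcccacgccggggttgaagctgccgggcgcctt
Mlxipl, chr5:135089640-135089939, forward strand: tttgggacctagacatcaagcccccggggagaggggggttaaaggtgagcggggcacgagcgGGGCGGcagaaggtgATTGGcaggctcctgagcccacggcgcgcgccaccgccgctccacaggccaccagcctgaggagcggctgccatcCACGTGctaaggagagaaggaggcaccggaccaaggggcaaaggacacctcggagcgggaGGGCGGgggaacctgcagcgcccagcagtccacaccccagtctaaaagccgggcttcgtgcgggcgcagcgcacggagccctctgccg
The 10 genes matched 14 RefSeq start regions. The CCAAT box was found in 9 of them, from 8 genes, and in 37.4% of all 32851 start regions of the same length. Fasn held 3 copies, at 90, 62 and 59 bases before the start, of which the last 2 share 2 letters. The GC box was found in 5 of the 14, from 4 genes, with 4 copies in Acly, and in 35.7% of all start regions. An E-box was present in 2 of the 14, in Elovl5 at 161 bases and in Mlxipl at 98 bases before the start, against 7.15% of all start regions. The sterol regulatory element, searched as TCACNCCAC on both strands, matched 1 start region of the set, the downstream one of Mlxipl, and 1.24% of all. A carbohydrate response element, searched as a pair of perfect E-boxes separated by 5 bases, matched 0 of the 32851. A form so strict that it matched nowhere cannot show whether the 10 genes hold such an element. These are matches of letters in short windows and say nothing of binding.

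Levels per length set the genes side by side. On the scale of CPM per kilobase of annotated exon, the fed wild type had most of Thrsp (139 ± 45.6, SD, n = 4), followed by Elovl5 (73.5 ± 8.49), Me1 (68.6 ± 22.7) and Mlxipl (58.0 ± 4.96). Acly (40.9 ± 13.7), Fasn (40.6 ± 14.3) and Srebf1 (40.2 ± 13.9) were alike, and Acacb (16.0 ± 2.91), Acaca (5.87 ± 1.38) and Elovl6 (5.60 ± 1.81) were lowest. In the fed mutant the order differed: Thrsp was again first (86.8 ± 51.6), but Elovl5 (26.0 ± 4.33) and Me1 (22.7 ± 5.01) came after Mlxipl, Srebf1, Fasn and Acly. Acacb in the fed mutant stood at 3.80 ± 0.320, level with Acaca at 3.73 ± 0.975. Exon length counts every annotated exon once, so genes with many transcript forms are set too low on this scale. All values that follow are CPM per gene, on library sizes scaled by TMM.

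**Figure D1:**
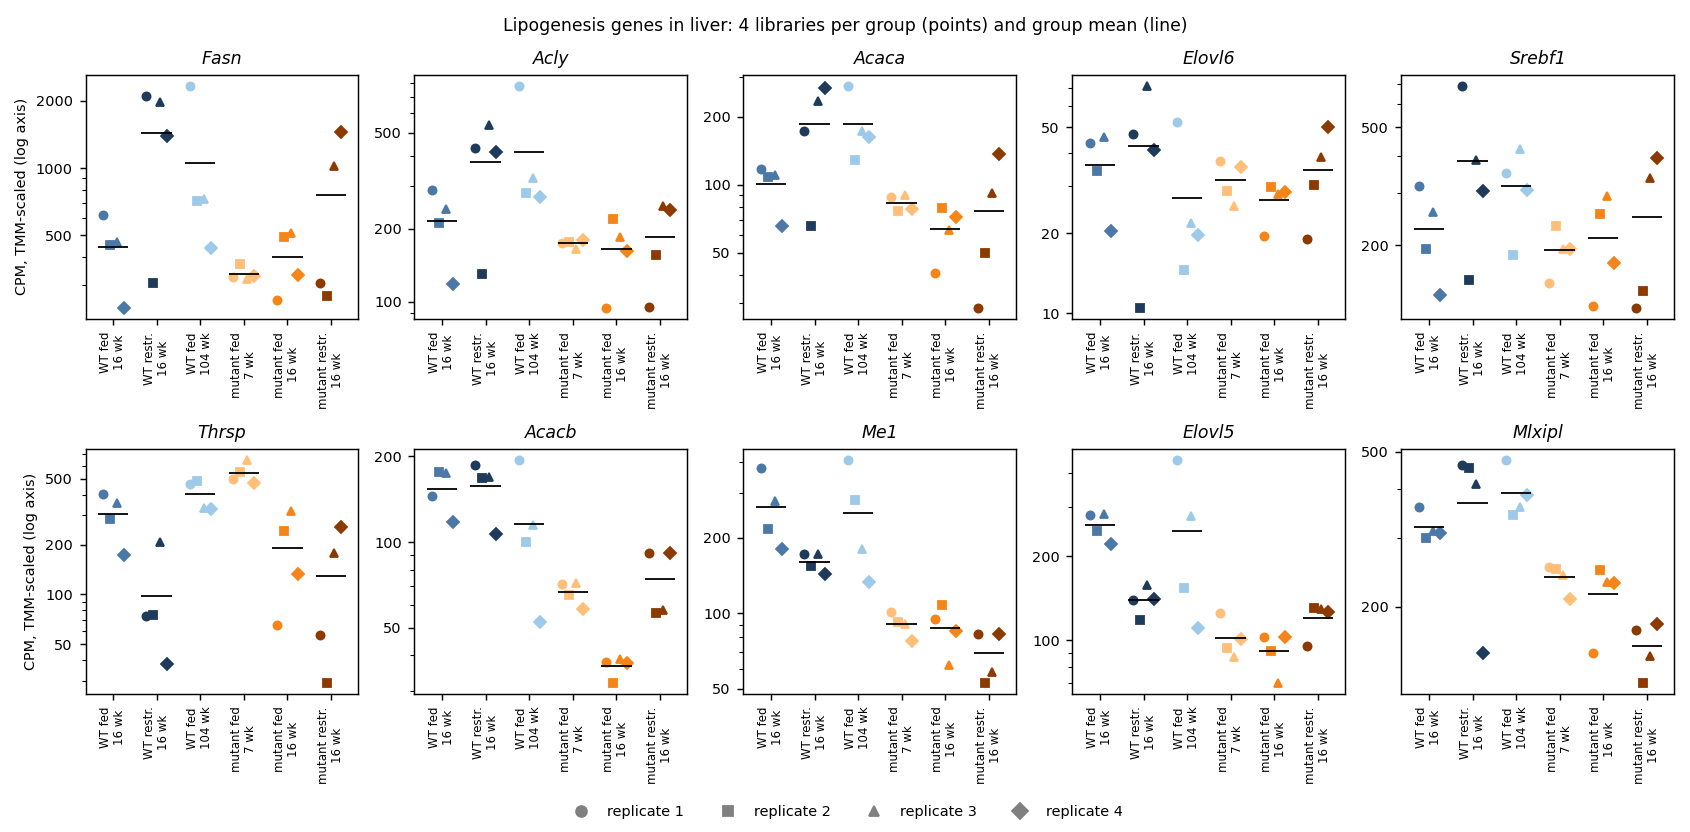
Level of each gene in CPM (log axis) in the 6 groups, with 1 point per library, shaped by replicate number, and a line at the group mean. Acacb, Me1 and Elovl5 are lower in the fed mutant than in the fed wild type, with no overlap, while Fasn in the restricted groups runs from 268 to 2097 CPM.

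The first comparison asked how the fed mutant differed from the fed wild type at 16 weeks. Of the 10 genes, 3 were lower at a Benjamini-Hochberg adjusted p under 0.05 in edgeR's quasi-likelihood test and 0 were higher, where 4.85% of all tested genes were lower and 5.1% higher (9.94% in either direction). The 3 were Acacb, Me1 and Elovl5. All 10 log2 fold changes were below 0, with a median of -0.61 against 0.02 over all tested genes.

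Acacb, the carboxylase isoform at the mitochondrial membrane, was at 146, 177, 175 and 118 CPM in the fed wild type and at 37.8, 32.1, 39.0 and 37.7 CPM in the fed mutant. Every mutant library was thus below every wild-type library. The log2 fold change was -2.07 ± 0.27 (SE, edgeR adjusted p = 1.76e-05), a level 0.238 times that of the wild type. Me1, the cytosolic malic enzyme, was at 379, 217, 279 and 180 CPM in the fed wild type and at 94.3, 108, 62.3 and 84.5 CPM in the fed mutant. Its log2 fold change was -1.60 ± 0.27 (edgeR adjusted p = 3.12e-04). The elongase gene Elovl5 was at 282, 247, 284 and 222 CPM against 102, 90.9, 70.2 and 103 CPM, again without overlap. Its log2 fold change was -1.499 ± 0.27 (edgeR adjusted p = 6.96e-04).

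Mlxipl, which encodes ChREBP, also had groups that did not overlap, at 361, 300, 313 and 309.5 CPM in the fed wild type and 152, 249, 232 and 230 CPM in the fed mutant. Its difference of -0.57 ± 0.22 on the log2 scale did not pass (edgeR adjusted p = 0.109). The 4 genes without overlap, all lower in the mutant, compare with 11.4% of all tested genes in that direction.

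The other 6 genes overlapped. Fasn was at 618, 455, 465.5 and 237 CPM in the fed wild type and at 257, 494, 512 and 331.5 CPM in the fed mutant, a log2 difference of -0.15 ± 0.58 (edgeR adjusted p = 0.907). Srebf1 differed by -0.10 ± 0.42, Acly by -0.38 ± 0.40, Elovl6 by -0.44 ± 0.43, Acaca by -0.66 ± 0.40 and Thrsp by -0.68 ± 0.57. Their standard errors of 0.40 to 0.58 compare with 0.22 to 0.27 for the genes without overlap. The 3 calls held with each of the 8 libraries of the comparison left out. Markers of macrophages moved with the genotype: 5 of 8 were higher in the fed mutant, and their summed level was 123 to 250 CPM against 84.5 to 121. Of 5 erythroid markers, 4 were lower, with a sum of 357 to 733 CPM against 1258 to 2287. Of 8 pericentral hepatocyte markers, 2 were higher, with a sum of 6567 to 8470 CPM against 5681 to 6353. Of 3 tested markers in each list, 1 neutrophil and 1 B and plasma cell marker were higher. Of 6 hepatocyte and 7 periportal markers, 1 of each was lower. The part of these in the results was not tested.

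**Figure D2:**
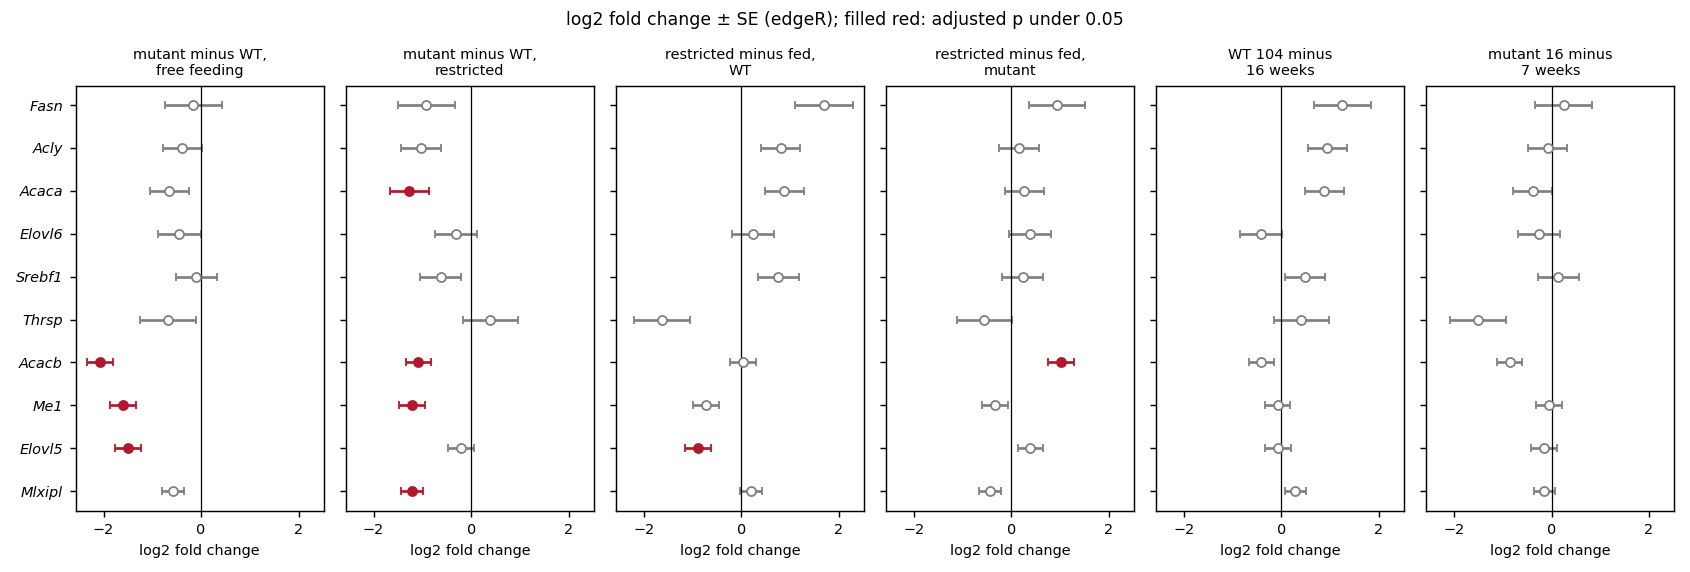
log2 fold change with its standard error from edgeR for each gene in 6 comparisons, with filled red points where the adjusted p is under 0.05. Acacb and Me1 are red in both comparisons of genotype, Elovl5 in 1 of them, and the bars of Fasn and Thrsp are the widest.

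Under restriction at 16 weeks, 4 of the 10 genes were lower in the mutant than in the wild type and 0 higher, where 8.7% of all tested genes were lower and 9.58% higher (18.3% in either direction). They were Mlxipl, Me1, Acacb and Acaca. The median log2 fold change of the 10 was -0.98 against -0.03 over all tested genes, and 9 of the 10 lay below 0. These groups also differed in the grams of food given.

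Among the regulators, Mlxipl was at 461, 453, 413 and 152 CPM in the restricted wild type and at 175, 128, 150 and 181 CPM in the restricted mutant. Its log2 fold change was -1.22 ± 0.23 (edgeR adjusted p = 4.81e-04). Replicate 4 of the restricted wild type lay among the mutant values, and without it the value was -1.48 (edgeR adjusted p = 5.04e-07). That library also had the highest mitochondrial share of all, at 16.9% of counts.

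Among the enzymes, Me1 was at 172, 154, 172.5 and 142.5 CPM against 82.8, 52.8, 58.4 and 82.3 CPM, a log2 fold change of -1.21 ± 0.27 (edgeR adjusted p = 0.00267). Acacb was at 186, 168, 170 and 106 CPM against 91.6, 56.5, 57.9 and 91.6 CPM, a log2 fold change of -1.08 ± 0.26 (edgeR adjusted p = 0.00544). In both genes every mutant library was below every wild-type library, as in 7.11% of all tested genes. Acaca, the cytosolic carboxylase, was at 173, 65.5, 233 and 267 CPM against 28.5, 50.1, 91.8 and 136 CPM. Its log2 fold change was -1.27 ± 0.40 (edgeR adjusted p = 0.0322) with overlapping groups. That call was lost without replicate 3 or 4 of the restricted wild type or replicate 1 or 2 of the restricted mutant, where the adjusted p ran from 0.0767 to 0.104. It was also lost with no filter on low counts (edgeR adjusted p = 0.0571) and when only the restricted groups were fitted (edgeR adjusted p = 0.189).

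The remaining 6 genes did not pass. Acly differed by -1.03 ± 0.41 (edgeR adjusted p = 0.0833), Fasn by -0.92 ± 0.58, Srebf1 by -0.63 ± 0.42, Elovl6 by -0.31 ± 0.43, Elovl5 by -0.21 ± 0.27 and Thrsp by 0.39 ± 0.57 on the log2 scale. Without replicate 2 of the restricted wild type, Acly reached -1.32 (edgeR adjusted p = 0.0169). All 8 macrophage markers were higher in the restricted mutant, with a summed level of 186 to 265 CPM against 64.8 to 118. Of 7 periportal hepatocyte markers, 2 were higher and 1 lower, with a sum of 6308 to 8526 CPM against 4625 to 5873. The adipocyte sums did not overlap either, at 8.81 to 11.1 CPM against 3.37 to 5.65, with 1 of 2 tested markers higher. Of 3 tested neutrophil markers 2 were higher. Of 8 pericentral markers 3 were higher and 1 lower, and of 6 hepatocyte markers 1 was higher and 2 lower. The part of these markers in the results was not tested.

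Me1 separated the mutant from the wild-type libraries across all 6 groups. Its 12 mutant libraries, of both ages and both diets, spanned 52.8 to 108 CPM, and its 12 wild-type libraries 133 to 406 CPM. Such a separation, with every mutant library below every wild-type library, was seen in 0.284% of all tested genes. It was noticed after the values were seen and is given without a test. For Mlxipl the 12 mutant libraries spanned 128 to 252 CPM, and 11 of the 12 wild-type libraries lay at or above 300 CPM, the exception being replicate 4 of the restricted wild type. In the order of group means, Me1 had its only gap between neighbouring groups at the step from the restricted wild type (160 ± 14.6 CPM) to the young mutant (90.4 ± 9.82 CPM). Mlxipl had its only gap from the fed wild type (321 ± 27.5 CPM) to the young mutant (238 ± 20.1 CPM).

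The effect of restriction was asked in each genotype. In the wild type, 1 of the 10 genes was lower after restriction and 0 were higher, against 7.3% and 6.3% of all tested genes (13.6% in either direction). The called gene was Elovl5. The median log2 fold change of the 10 was 0.22 against 0.04 over all tested genes, and 5 of the 10 had an unadjusted p under 0.05, as did 28.6% of all tested genes. This comparison and the comparisons of genotype share groups, so their values are not independent.

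Elovl5 was at 140, 118, 158 and 140.5 CPM in the restricted wild type, below all 4 fed libraries at 222 to 284 CPM. Its log2 fold change was -0.90 ± 0.27 (edgeR adjusted p = 0.0277). The adjusted p rose to between 0.0558 and 0.0707 without replicate 1 or 3 of the fed wild type or without replicate 1, 2 or 4 of the restricted wild type. Me1 also lay below all fed libraries, with a log2 difference of -0.72 ± 0.26 (edgeR adjusted p = 0.0711). The 2 genes without overlap compare with 9.06% of all tested genes.

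Fasn had the widest range of the enzymes. It was at 2097, 306, 1967 and 1387 CPM in the restricted wild type against 237 to 618 CPM in the fed wild type. Replicates 1, 3 and 4 were thus more than double the highest fed library, while replicate 2 lay inside the fed range. The log2 difference was 1.70 ± 0.59 (edgeR adjusted p = 0.0618). Without replicate 2, Fasn stood at 2.04 (adjusted p = 0.0159), Acaca at 1.17 (adjusted p = 0.0313) and Acly at 1.10 (adjusted p = 0.043) in edgeR, and all 3 passed.

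Acly and Acaca were also lowest in replicate 2. Acly was at 432, 130, 536 and 417 CPM, and Acaca at 173, 65.5, 233 and 267 CPM. With replicate 2 included, their log2 differences were 0.81 ± 0.41 and 0.88 ± 0.40 (edgeR adjusted p = 0.195 and 0.15). Elovl6 was at 47.3, 10.5, 71.7 and 40.9 CPM (0.24 ± 0.43) and Srebf1 at 690, 152, 389 and 304 CPM (0.76 ± 0.42), again with replicate 2 lowest.

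Thrsp went the other way from Fasn. It was at 74.2, 75.2, 206 and 38.0 CPM in the restricted wild type and at 402, 287, 355 and 172 CPM in the fed wild type. The log2 difference was -1.63 ± 0.58 (edgeR adjusted p = 0.0663), and without replicate 3, the only restricted library above the lowest fed one, it was -2.28 (edgeR adjusted p = 0.0164). Acacb (0.04 ± 0.26) and Mlxipl (0.20 ± 0.22) showed small differences. DESeq2 called 4 of the 10 genes in this comparison, Fasn higher and Elovl5, Me1 and Thrsp lower, where it called 16.6% of all genes it tested.

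In the mutant, 1 of the 10 genes was higher after restriction and 0 were lower, against 4.91% and 6.33% of all tested genes (11.2% in either direction). The called gene was Acacb. It rose from 32.1 to 39.0 CPM in the fed mutant to 91.6, 56.5, 57.9 and 91.6 CPM, with no overlap, as in 7.73% of all tested genes. The log2 fold change was 1.02 ± 0.26 (edgeR adjusted p = 0.0121), and the call held under all 15 alternatives. Even so, the restricted mutant stayed below the fed wild type, whose lowest library was at 118 CPM.

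Fasn in the restricted mutant split into 307 and 268 CPM in replicates 1 and 2 and 1025 and 1450 CPM in replicates 3 and 4. The first pair lay inside the fed mutant range of 257 to 512 CPM and the second pair above it. The log2 difference was 0.94 ± 0.58 (edgeR adjusted p = 0.342). Thrsp split in the same places, at 56.9 and 29.3 against 177 and 253.5 CPM, and Srebf1 at 123 and 140 against 338 and 394 CPM. The split was not particular to these genes. Over the whole count table, the chi-square per degree of freedom between libraries was 8.32 for replicates 3 and 4 and 29.6 for 1 and 2. Across the pairs it was 48 to 54.2. Acaca was at 28.5, 50.1, 91.8 and 136 CPM and Acly at 94.9, 156, 250 and 239 CPM. Of the other genes, Mlxipl differed by -0.45 ± 0.22, Me1 by -0.34 ± 0.26, Elovl5 by 0.39 ± 0.27 and Elovl6 by 0.38 ± 0.43 on the log2 scale, and none passed.

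The difference between genotypes in the response to restriction was tested as an interaction. By edgeR 0 of the 10 genes passed, against 1.5% of all tested genes in either direction. At an unadjusted p under 0.05 there were 2, Elovl5 and Acacb, against 14.2% of all tested genes. DESeq2 called 1, Elovl5, against 3.06% of all genes. The interaction of Elovl5 was 1.29 ± 0.38 on the log2 scale (edgeR adjusted p = 0.0957). That of Acacb was 0.99 ± 0.37 (edgeR adjusted p = 0.21) and that of Mlxipl -0.65 ± 0.32 (edgeR adjusted p = 0.354). The last reached -0.90 (edgeR adjusted p = 0.0264) without replicate 4 of the restricted wild type.

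Natural ageing compared the old with the fed wild type, a comparison that shares its control libraries with the others of the fed wild type. By edgeR 0 of the 10 genes passed, against 10.1% of all tested genes in either direction. DESeq2 also called 0, against 13% of all genes, and 3 had an unadjusted p under 0.05, against 24.5%. Acaca was at 274, 129, 173 and 162 CPM in the old livers, each above all fed libraries at 65.4 to 117 CPM, as in 8.21% of all tested genes. Its log2 difference was 0.88 ± 0.40 (edgeR adjusted p = 0.178). Fasn was at 2338, 711, 729 and 441 CPM, a log2 difference of 1.25 ± 0.58 (edgeR adjusted p = 0.194). Acly was at 782, 281.5, 324 and 272 CPM, a log2 difference of 0.94 ± 0.41 (edgeR adjusted p = 0.154). Replicate 1 was the highest old library for Fasn, Acly, Acaca, Elovl6, Acacb, Me1, Elovl5 and Mlxipl. Without it Acacb stood at -0.79 against the fed wild type (edgeR adjusted p = 0.0374), where with it the value was -0.41 ± 0.26 (edgeR adjusted p = 0.344). The other 6 genes differed by between -0.42 and 0.48 on the log2 scale. In these groups 2 of 8 macrophage markers were higher in the old livers, with a summed level of 117 to 205 CPM against 84.5 to 121. All 3 tested B and plasma cell markers were higher, with a sum of 43.15 to 50.8 CPM over 4 markers in the old and 4.43 to 10.9 in the fed wild type. The part of either in the results was not tested.

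Between 7 and 16 weeks in the freely fed mutant, 0 of the 10 genes passed by edgeR, against 0.686% of all tested genes in either direction. DESeq2 called 0 as well, against 1.59% of all genes, and 2 had an unadjusted p under 0.05, against 10.4%. These were the 2 genes without overlap, both lower at 16 weeks, against 6.45% of all tested genes. Acacb was at 71.0, 65.4, 71.9 and 58.1 CPM in the young mutant, and the step to the fed mutant was -0.86 ± 0.26 on the log2 scale (edgeR adjusted p = 0.159). When only these 2 groups were fitted, Acacb passed at -0.86 (edgeR adjusted p = 3.37e-04). Thrsp was at 498, 546, 645 and 469 CPM in the young mutant, the highest group mean of that gene, and at 65.5, 241, 321 and 133 CPM in the fed mutant (-1.51 ± 0.57, edgeR adjusted p = 0.324). The other 8 differed by between -0.39 and 0.25. Since no wild-type livers of 7 weeks were sequenced, growth and the course of the mutant cannot be told apart. The cholangiocyte sum was 36.8 to 39.2 CPM in the young and 21.02 to 29.7 in the fed mutant, with 0 of 5 markers called. The adipocyte sum was 6.87 to 8.40 CPM in the young and 3.31 to 5.48 in the fed mutant, with 0 of 2 tested markers called. Of 8 pericentral and 7 periportal hepatocyte markers, 1 of each was lower in the fed mutant. The part of these markers was not tested.

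The 10 genes also differed in their spread between libraries of a group. The SD of log2 CPM of Fasn over 4 libraries was 1.30 in the restricted wild type and 1.23 in the restricted mutant. Those values stood at percentiles 98.8 and 99 of the 12690 tested genes, whose medians in the same groups were 0.359 and 0.29. In the young mutant the SD of Fasn was 0.104, at percentile 24.4. Elovl6 (1.2), Thrsp (1.01), Acly (0.921), Acaca (0.914) and Srebf1 (0.902) were also widely spread in the restricted wild type. In the same 4 libraries, Me1 had an SD of 0.133 and Elovl5 of 0.172, at percentiles 7.79 and 13.3. Over these 4 libraries the highest CPM was 6.86 times the lowest in Fasn, 1.21 times in Me1 and 1.34 times in Elovl5. The pair of highest and lowest library was not the same in these genes. For Thrsp the spread was largest in the restricted mutant (1.44, percentile 99.5), where its highest library had 8.66 times the CPM of the lowest.

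**Figure D3:**
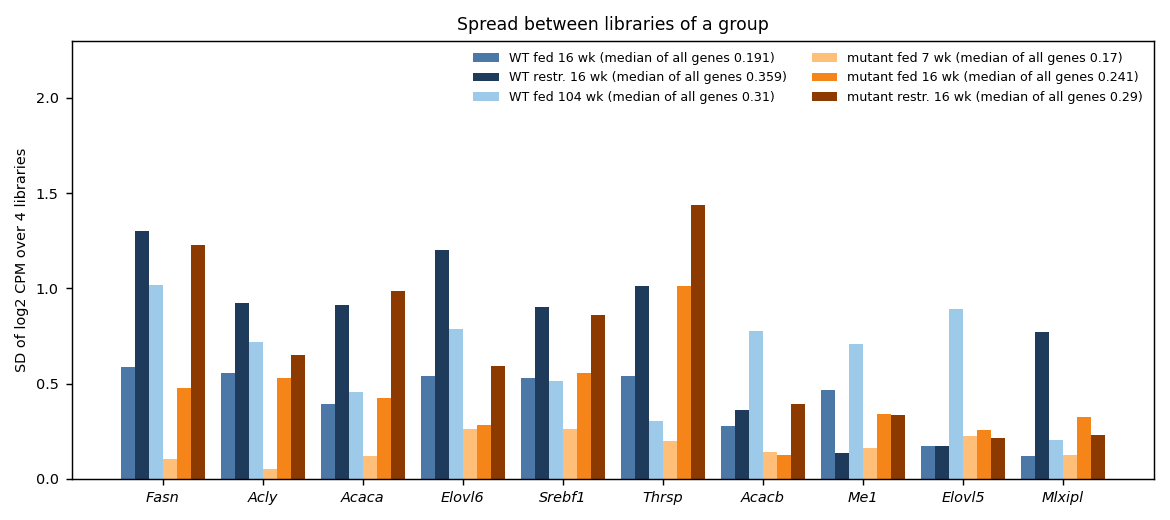
SD of log2 CPM over the 4 libraries of each group (bars, 1 colour per group) for each gene, with the median over all tested genes in the key. The bars of Fasn in the restricted groups, at 1.30 and 1.23, stand above those medians of 0.359 and 0.29, while Me1 and Elovl5 in the restricted wild type stand below.

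Deviations from the group mean had the same sign in Fasn, Acly, Acaca, Elovl6 and Srebf1 in some libraries, but not in all. In replicate 3 of the old wild type Srebf1 was at 0.48 and Fasn at -0.23 on the log2 scale. In replicate 4 of the fed mutant Acaca was at 0.226 and Fasn at -0.209. No library of the young mutant had all 5 on the same side, as in its replicate 1 with Srebf1 at -0.347 and Elovl6 at 0.254. In replicate 2 of the restricted wild type all 5 were low, and in replicates 3 and 4 of the restricted mutant all 5 were high. Replicate 1 of the old wild type was high for all 5, and replicate 4 of the fed wild type low for all 5. Acacb, Me1 and Elovl5 were also high in that old library and low in that fed library. In replicate 2 of the restricted wild type they were near the rest of the group: Acacb and Me1 were not its lowest there, and Elovl5, at 118 CPM, was its lowest by a small margin to 140 CPM.

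**Figure D4:**
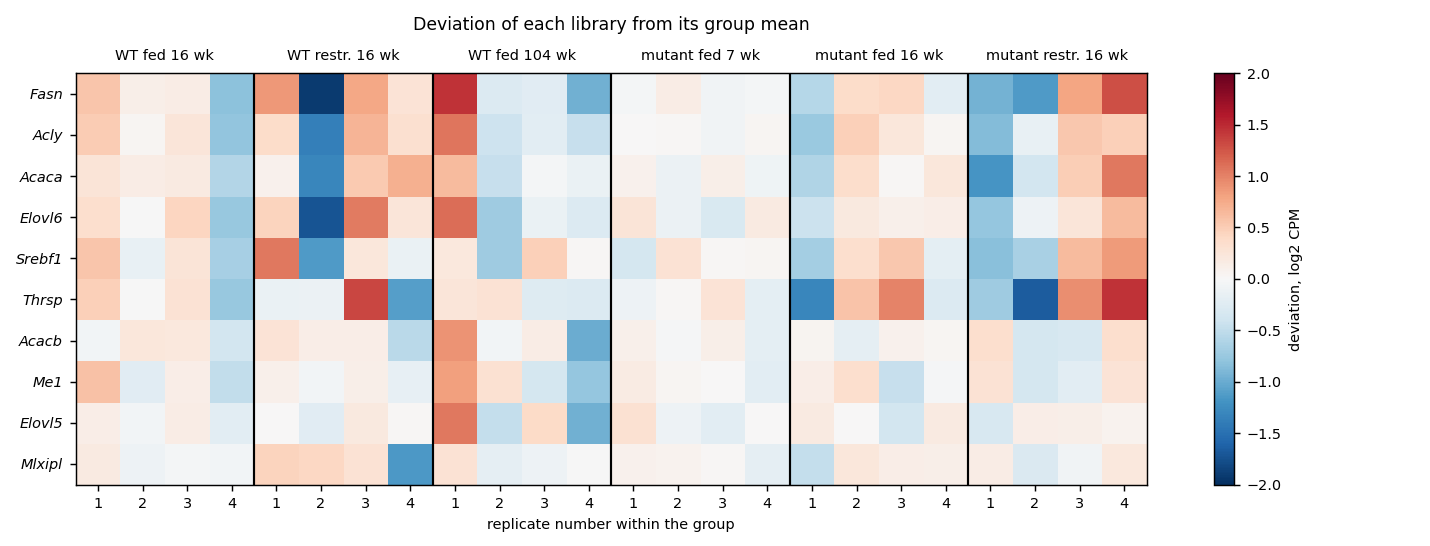
Deviation of each library from its group mean in log2 CPM (colour, red above and blue below 0), by gene (rows) and library (columns, grouped). The upper 5 genes share a colour in some libraries but not in all, with the deepest blue in replicate 2 of the restricted wild type.

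Likeness was measured as the root mean square difference of centred log2 CPM over the 24 libraries, a description in which all points share their libraries. Fasn was nearest to Acly (0.481), Srebf1 (0.579) and Acaca (0.585), which were also nearest among all 8616 genes of at least 5 CPM compared, where the median was 1.05. Elovl6 followed at 0.775. Acacb (0.948), Elovl5 (0.97) and Mlxipl (0.984) came at ranks 935, 1455 and 1896 of the 8616. Me1 (1.03) came at rank 3682, near the median, and Thrsp (1.59) at rank 8411. A gene that did not change at all would lie at 1.01, the root mean square of Fasn about its own mean. Taken on deviations from group means alone, which leaves out the differences between groups, the order changed. Acly (0.348) was still nearest of the set, followed by Elovl6 (0.387), Acaca (0.412) and Srebf1 (0.459), and Thrsp (0.65) came before Elovl5 (0.669), Me1 (0.684), Acacb (0.709) and Mlxipl (0.793). Over all 24 libraries, among pairs of the 10, Acaca and Acly were closest (0.286), and Me1 and Elovl5 (0.467), Acacb and Elovl5 (0.549) and Acacb and Me1 (0.574) were close to each other. The 6 genes outside the set most like Fasn were Gpi1 (0.635), a glycolytic isomerase, Ethe1 (0.647), a mitochondrial sulfur enzyme, Mid1ip1 (0.657), the relative of Thrsp, Eepd1 (0.672), Pgd (0.675), an enzyme of the pentose phosphate pathway, and the tubulin gene Tuba1c (0.694).

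Ratios of CPM within a library compare the RNA levels of gene pairs. Fasn over Acly was 2.05 ± 0.111 (SD, n = 4) in the fed wild type and 1.92 ± 0.13 in the young mutant. It ran from 2.35 to 4.86 in the restricted wild type and from 1.72 to 6.07 in the restricted mutant. The old wild type lay at 1.62 to 2.99 and the fed mutant at 2.04 to 2.76. Fasn over Thrsp was 1.31 to 1.59 in the fed wild type, below 1 in the young mutant at 0.493 to 0.699, and 1.6 to 3.92 in the fed mutant. It was 4.07 to 36.6 in the restricted wild type and 5.39 to 9.15 in the restricted mutant. Every restricted library was therefore above every freely fed library of 16 weeks in this ratio. The old wild type, also freely fed, ran from 1.34 to 5, and its highest library lay above the lowest of the restricted wild type. Acaca over Acacb was 0.555 to 0.805 in the fed wild type. It was 1.18 to 1.34 in the young mutant, 1.08 to 2.45 in the fed mutant and 1.29 to 3.09 in the old wild type, all without overlap with the fed wild type. The restricted groups spanned 0.389 to 2.51 (wild type) and 0.312 to 1.58 (mutant). Elovl6 over Elovl5 was 0.0914 to 0.162 in the fed wild type and higher in every mutant library, at 0.191 to 0.401 in the fed mutant, 0.199 to 0.399 in the restricted mutant and 0.292 to 0.351 in the young mutant. The restricted wild type reached the same levels in 3 of its libraries, at 0.338, 0.454 and 0.291, with replicate 2 at 0.0885, and the old wild type lay at 0.0782 to 0.178. These ratios were formed after the values were seen, and no test was made of them.

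**Figure D5:**
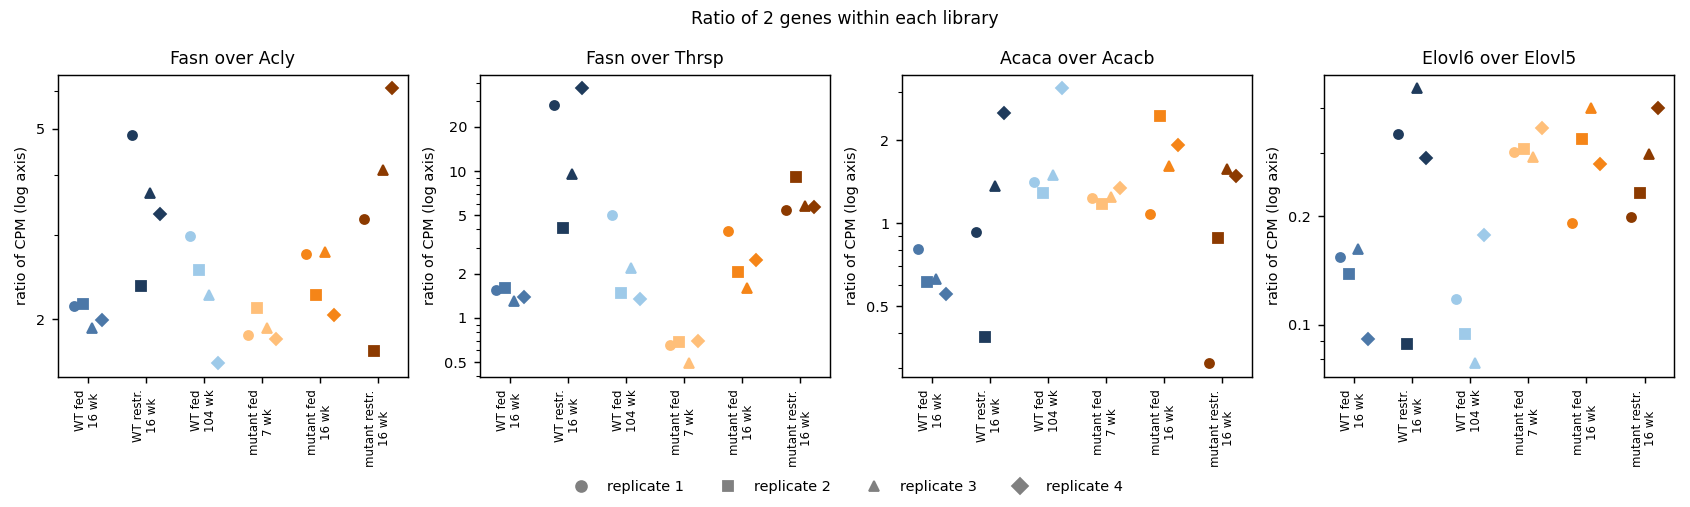
Ratio of the CPM of 2 genes within each library (log axis), by group, 1 point per library shaped by replicate number. Fasn over Thrsp is 1.31 to 1.59 in the fed wild type, 1.34 to 5 in the old wild type and 4.07 or more in every restricted library.

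Genes around the pathway were read from 4 lists, whose counts compare with 6.3% higher and 7.3% lower of all tested genes for restriction in the wild type and 4.91% and 6.33% in the mutant. For genotype the shares were 5.1% and 4.85% on free feeding and 9.58% and 8.7% under restriction, and in either direction they were 10.1% for natural ageing, 0.686% for mutant age and 1.5% for the interaction. Of 26 regulators, 4 rose and 0 fell with restriction in the wild type (median log2 fold change 0.15 against 0.04 over all genes), and 2 rose and 0 fell in the mutant (median -0.02). Mid1ip1, whose product binds acetyl-CoA carboxylase and promotes its polymerisation, rose by 1.79 ± 0.39 on the log2 scale in the wild type (edgeR adjusted p = 0.00439), from 19.1 to 29.3 CPM in the fed to 110, 39.6, 93.4 and 96.9 CPM in the restricted libraries. Its lowest restricted value was again in replicate 2. In the mutant its difference was 0.59 ± 0.39 (edgeR adjusted p = 0.373). Prkab1, a subunit of the AMP-activated kinase, rose in the mutant by 1.11 ± 0.21 (edgeR adjusted p = 6.85e-04). It rose by 0.72 ± 0.21 in the wild type (edgeR adjusted p = 0.0223), a call lost without replicate 1 or 2 of the fed or replicate 4 of the restricted wild type and with only these groups fitted (edgeR adjusted p = 0.0978). Irs1, an adaptor of the insulin receptor, differed by 0.78 ± 0.25 in the wild type (edgeR adjusted p = 0.0385), which did not pass without 6 of the 8 libraries in turn or with a replicate block (edgeR adjusted p = 0.0541).

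Insig2, which retains SREBP in the endoplasmic reticulum, was lower in the fed mutant than in the fed wild type by -1.27 ± 0.24 (edgeR adjusted p = 0.00105), at 51.8 to 72.9 against 89.2 to 215 CPM. With restriction it rose in the mutant by 0.88 ± 0.24 (edgeR adjusted p = 0.0166) and differed by -0.64 ± 0.24 in the wild type (edgeR adjusted p = 0.0765). The interaction was 1.52 ± 0.34 (edgeR adjusted p = 0.0202). Those last calls of Insig2 in the mutant and the interaction were each lost without any of 3 libraries, with adjusted p of 0.0517 to 0.0588. Insig1, the partner under SREBP control, differed by 0.93 ± 0.57 in the wild type and -0.39 ± 0.56 in the mutant on restriction, neither called. Scap, the SREBP escort, and Nr1h3, which encodes the oxysterol receptor LXRα, were not called on restriction either. Between the restricted groups, Nr1h3 was lower in the mutant by -0.41 ± 0.10 (edgeR adjusted p = 0.00822), a call lost with only these groups fitted (edgeR adjusted p = 0.137). In the other comparisons of these 26 regulators, 0 were higher and 2 lower for genotype on free feeding, 1 and 3 for genotype under restriction, 1 and 0 for natural ageing, 0 and 0 for mutant age and 1 and 0 for the interaction.

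Of 22 genes that supply carbon and NADPH, 1 rose and 4 fell with restriction in the wild type (median -0.15), and 2 rose and 2 fell in the mutant (median 0.02), where 6.3% and 7.3% of all tested genes were higher and lower in the wild type and 4.91% and 6.33% in the mutant. Slc25a10, the mitochondrial dicarboxylate carrier, fell by 0.86 on the log2 scale, with an SE of 0.17 (edgeR adjusted p = 0.0018), and Slc25a1, the citrate carrier, by 0.66 with an SE of 0.15 (edgeR adjusted p = 0.00539). The Slc25a1 call was lost with only these groups fitted (edgeR adjusted p = 0.052). G6pdx, the entry enzyme of the pentose phosphate pathway, rose by 0.81 ± 0.23 (edgeR adjusted p = 0.0185), and the call was lost without replicate 3 of the fed or replicate 4 of the restricted wild type and with only these groups fitted (edgeR adjusted p = 0.0509). In the mutant, the dehydrogenase genes Pdha1 and Mdh1 rose by 0.60 ± 0.12 and 0.39 ± 0.10 (edgeR adjusted p = 8.35e-04 and 0.0155), and Idh1, another source of NADPH, fell by 0.91 with an SE of 0.23 (edgeR adjusted p = 0.0117). The Mdh1 call was lost without replicate 4 of the fed or replicate 3 of the restricted mutant, and those of Mdh1 and Idh1 with only these groups fitted (edgeR adjusted p = 0.0575 and 0.0637). The interaction called Pcx (0.71 ± 0.17) and Mdh1 (0.60 ± 0.15) of these 22 (edgeR adjusted p = 0.0295 and 0.0407). The interaction call of Pcx was lost in 8 and that of Mdh1 in 14 of the 16 fits with 1 library left out. The latter was also lost with no filter (edgeR adjusted p = 0.0831) and with only these groups fitted (edgeR adjusted p = 0.0604).

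Genotype differences were also called within that supply. Slc13a5, the citrate importer of the plasma membrane, was at 0.206 to 0.958 CPM in the fed wild type and at 6.67 to 14.5 CPM in the fed mutant. Its log2 fold change was 4.38 ± 0.57 on free feeding (edgeR adjusted p = 1.5e-05) and 3.79 ± 0.62 under restriction (edgeR adjusted p = 1.37e-04). Without replicate 3 of the fed wild type the first value was 5.09. Pklr, liver pyruvate kinase and a classical ChREBP target, was lower by -0.78 ± 0.27 under restriction (edgeR adjusted p = 0.0475), a call lost with 5 of the 8 libraries left out in turn. It was also lost with RLE or upper-quartile scaling, with no filter, with a replicate block and with only these groups fitted, at edgeR adjusted p of 0.0536 to 0.124, so that 5 of 15 alternatives kept it. Among these 22 genes, 1 was higher and 3 were lower for genotype on free feeding, 1 and 3 for genotype under restriction, 2 and 3 for natural ageing, 0 and 0 for mutant age and 2 and 0 for the interaction. Slc13a5 was also higher in the old wild type, by 2.20 ± 0.60 (edgeR adjusted p = 0.0205), a call lost without any of 4 libraries and with only these groups fitted (edgeR adjusted p = 0.0514). Without replicate 3 of the fed wild type that value was 2.91 (edgeR adjusted p = 0.0109).

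Downstream of the set, 25 genes of desaturation, further elongation and esterification gave 0 higher and 7 lower with restriction in the wild type (median -0.10), and 3 higher and 6 lower in the mutant (median -0.17). Of all tested genes 6.3% were higher and 7.3% lower in the wild type, and 4.91% and 6.33% in the mutant. Scd1, the stearoyl-CoA desaturase of liver, went in opposite directions in the genotypes. It was at 2463, 3646, 2220 and 2277 CPM in the fed wild type and at 1336, 937, 650 and 872 CPM in the restricted wild type, a log2 fold change of -1.48 ± 0.39 (edgeR adjusted p = 0.0153). In the mutant it went from 205, 272.5, 114 and 317 CPM to 616, 610, 609 and 1119 CPM, a log2 fold change of 1.70 ± 0.40 (edgeR adjusted p = 0.00656). The interaction was 3.18 ± 0.56 (edgeR adjusted p = 0.00389) and held under all 23 alternatives, while the wild-type call was lost without replicate 2 of the fed or replicate 4 of the restricted wild type. On free feeding Scd1 was lower in the mutant by -3.54 ± 0.43 (edgeR adjusted p = 9.83e-06). Scd2 ran in parallel (1.67 ± 0.39 in the mutant), but the close copies may share reads, so its separate value is uncertain.

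Elovl3, an elongase of very long saturated chains, was nearly lost with restriction in both genotypes. It was at 43.4 to 162 CPM in the fed wild type and at 0.237, 3.80, 0.385 and 0.190 CPM in the restricted wild type, a log2 fold change of -6.48 ± 0.76 (edgeR adjusted p = 1.06e-05), or -8.44 without replicate 2. In the mutant it went from 70.6 to 141 CPM to between 0 and 2.04 CPM, a log2 fold change of -6.61 ± 0.76 (edgeR adjusted p = 4.9e-06), or -7.23 without replicate 3 of the restricted mutant. Mogat1, a monoacylglycerol acyltransferase, fell in the wild type by 3.21 with an SE of 0.33 (edgeR adjusted p = 4.14e-07), with an interaction of 2.62 ± 0.44 (edgeR adjusted p = 0.00171). In the other comparisons of these 25 genes, 1 was higher and 5 were lower for genotype on free feeding, 2 and 4 for genotype under restriction, 0 and 5 for natural ageing, 0 and 3 for mutant age and 3 and 0 for the interaction.

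Of 15 clock and feeding-phase genes, 4 rose and 4 fell with restriction in the wild type, and 1 rose and 1 fell in the mutant, against the same 6.3% and 7.3%, and 4.91% and 6.33%, of all tested genes. Dbp, an output factor of the clock, fell in the wild type by 2.10 with an SE of 0.42 (edgeR adjusted p = 0.00175). Nr1d1, the clock repressor Rev-erbα, differed by -1.68 ± 0.45 in the wild type and -1.40 ± 0.42 in the mutant (edgeR adjusted p = 0.0152 and 0.033). Npas2, a partner of Arntl, was at 3.04, 0.143, 11.3 and 4.18 CPM in the restricted wild type against 0.167 to 1.10 CPM in the fed wild type (3.22 ± 0.89, edgeR adjusted p = 0.0184). In the mutant its fold change was 4.37 ± 1.19 (edgeR adjusted p = 0.0185). These calls of Nr1d1 and Npas2 were lost without any of 2 to 5 libraries. The wild-type calls were also lost with only these groups fitted (edgeR adjusted p = 0.0749 for Nr1d1 and 0.0773 for Npas2), and the mutant call of Nr1d1 with no filter (edgeR adjusted p = 0.0639). Without replicate 2 of the restricted wild type Nr1d1 stood at -2.34. Npas2 moved to 2.31 in the wild type without restricted replicate 3, to 3.895 without fed replicate 4, and to 5.17 in the mutant without fed replicate 1. Genotype gave 0 higher and 0 lower of the 15 on free feeding and 1 and 5 under restriction, mutant age 0 and 0, and the interaction 0 and 0. Natural ageing gave 3 higher and 4 lower, with Nr1d1 at 3.75 ± 0.40 and Arntl at -2.82 ± 0.28 (edgeR adjusted p = 1.85e-06 and 2.43e-07). The labels give no hour of collection for each library, and the part of clock phase in the results was not tested.

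Some genes followed the split of Fasn within the restricted groups, and these were picked after their values were seen. Lpin1, a phosphatidate phosphatase induced by fasting, ran against Fasn in the mutant, at 245, 494, 19.7 and 33.6 CPM where Fasn was at 307, 268, 1025 and 1450 CPM. In the restricted wild type Lpin1 was at 42.3, 468, 127 and 271 CPM, highest in replicate 2, where Fasn was lowest. Per1, a clock gene that also responds to glucocorticoids, was at 14.6, 97.7, 62.8 and 29.5 CPM in the restricted wild type and at 38.2, 67.5, 26.4 and 16.5 CPM in the restricted mutant, also highest in each replicate 2. Mid1ip1 was at 30.4, 25.7, 48.7 and 63.8 CPM in the restricted mutant, in the order of Fasn. The part of these genes in the spread of Fasn was not tested.

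Other cell types and zones were read from marker lists. With restriction in the wild type, 1 of 8 macrophage, 1 of 5 stellate, 1 of 5 cholangiocyte, 1 of 6 hepatocyte and 1 of 8 pericentral markers were higher, 3 of 5 erythroid, 2 of 7 periportal and 1 of 3 tested B and plasma cell markers were lower, and no endothelial, adipocyte or neutrophil marker was called. The sums without overlap were those of stellate markers (192 to 254 against 106 to 165 CPM) and hepatocyte markers (107700 to 144200 against 81060 to 98940), higher in the restricted wild type, and of erythroid (368 to 823 against 1258 to 2287), neutrophil (2.51 to 7.74 against 7.98 to 10.5) and B and plasma cell markers (1.47 to 3.21 against 4.43 to 10.9), lower. In the mutant, 1 of 8 macrophage, 1 of 5 endothelial, 1 of 2 tested adipocyte, 1 of 6 hepatocyte, 1 of 8 pericentral and 3 of 7 periportal markers were higher, and 2 hepatocyte, 2 pericentral, 2 periportal and 1 erythroid marker were lower. The summed periportal level was 4728 to 6242 CPM in the fed mutant and 6308 to 8526 in the restricted mutant. The pericentral sum was 6567 to 8470 and 6055 to 9886 CPM. Their part in the rise of Acacb was not tested.

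Some counts carry limits of annotation. Exons of Srebf1 share 109 bases with Rai1 on the opposite strand, and those of Me1, Elovl6 and Mlxipl share 30, 34 and 235 bases with antisense genes. Whether counting used strand is not given in the sources used here, so reads over these bases cannot be assigned. Gene-level counts also do not separate SREBP-1a from SREBP-1c, nor the alternative first exons of Mlxipl.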

How the data were processed

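The authors deposited unnormalized counts per gene for 24 libraries. GRCm38.p6, STAR 2.7.0f, Trimmomatic 0.39 and featureCounts (Subread 1.6.4) are listed in the submitters' processing notes. Annotation release, strand setting and multi-mapping rule: not given in the sources used here. GENCODE M21 matched each of the 22429 identifiers and gave positions and exon lengths. No count was present for 3497 genes.

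The count model was fitted in edgeR 4.0.16 (R 4.3.3): filterByExpr by group (12690 genes kept), TMM, 1 model with 6 group means (18 residual degrees of freedom, common dispersion 0.0493), the quasi-likelihood F test with robust estimation, and Benjamini-Hochberg adjustment over all genes tested, called under 0.05, in 7 contrasts. Standard errors are the log2 fold change divided by the square root of F. The authors' length column was not used, since it gave the genomic span in 97.8% of genes.

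The 10 members, the gene lists and the tests were chosen with earlier results of these data known. The text names all 10 members, up to 3 called genes per list with the largest change in the restriction comparisons and the interaction, and Insig1, Insig2, Nr1h3, Scap, Pklr, Slc13a5 and Scd1; 1 further gene of that rule is not reported here. Likeness used log2 CPM with a prior count of 2. No list was tested as a set.

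Alternatives were DESeq2 1.42.0, other scalings, no filter, mitochondrial genes left out, a replicate block, fits of the compared groups alone and each library left out. In counts simulated for restriction in the wild type (12690 genes), the test recovered 66% of 97 genes changed by 1 log2 unit and 91% of 100 changed by 2, and called 8 unchanged genes. The simulation gave each gene the same spread in all groups. In the data the median SD of log2 CPM was 0.359 in the restricted and 0.191 in the fed wild type. The shares recovered may therefore not hold for this comparison or for members of wide spread. Within each group, no pair of libraries had counts alike within sampling noise. Pairs across groups were not compared.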

Additional observations from a re-analysis of the deposited data

Results flagged for a closer look

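Within each group of 4, the highest and lowest CPM of each gene was set against the gap to its neighbour (Dixon's ratio, critical value 0.829). Of 60 combinations of gene and group, 6 had a library standing apart, and chance alone gives about 1 in 20. Replicate 1 of the old wild type stood high for Fasn, at 2338 CPM, and for Acly, at 781.9 CPM. Replicate 4 of the fed wild type stood low for Acaca, at 65.38 CPM, and replicate 4 of the restricted wild type stood low for Mlxipl, at 152.2 CPM. Replicate 1 of the fed mutant at 16 weeks stood low for Elovl6, at 19.51 CPM. Replicate 1 of the restricted mutant stood low for Elovl5, at 95.32 CPM.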

How the results depend on the processing

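The calls of Acacb, Me1 and Elovl5 for genotype on free feeding, of Acacb, Me1 and Mlxipl for genotype under restriction, and of Acacb for restriction in the mutant held under all 15 alternatives each. Fitting only the compared groups called 986 genes for restriction in the wild type, 2202 for genotype on free feeding, 877 for genotype under restriction, 568 for mutant age and 126 for the interaction, and 2, 4, 3, 1 and 1 of the 10 members, with 1 for ageing. DESeq2 called 201 genes for mutant age and 388 for the interaction, and 4 members for restriction in the wild type and 1 for the interaction. With a replicate block, 3 members were called for restriction in the wild type, Me1 (-0.68, edgeR adjusted p = 0.0453) and Thrsp (-1.79, edgeR adjusted p = 0.0492) besides Elovl5. The number of all genes called is not reported here for that fit or for ageing with only the compared groups. Those member counts therefore stand without a background. Of 60 pairs of same-numbered libraries, 11 correlated above 0.1 (r from -0.239 to 0.316). Pairs of unlike number were not computed for reference, so these values do not decide whether the replicate numbers pair samples. The cause of these shifts was not tested.

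With 1 library left out, genes called ranged from 1051 to 2009 for restriction in the wild type, 1053 to 1414 in the mutant, 871 to 1082 for genotype on free feeding, 1804 to 2256 under restriction, 792 to 1533 for ageing, 29 to 76 for mutant age and 109 to 225 for the interaction. Members called ranged from 0 to 3, 1 to 1, 3 to 3, 3 to 5, 0 to 1, 0 to 0 and 0 to 1 in the same order. Sign changed only among uncalled members, 26 times, all with 1 library left out. The log2 ranges of those members, lowest to highest, were -0.073 to 0.187 (Acacb) and -0.127 to 0.568 (Elovl6) for restriction in the wild type, and -0.165 to 0.538 (Acaca), -0.034 to 0.377 (Acly) and -0.076 to 0.459 (Srebf1) in the mutant. For genotype on free feeding they were -0.365 to 0.039 (Fasn) and -0.3 to 0.095 (Srebf1), and under restriction -0.624 to 0.059 (Elovl6) and -0.168 to 1.044 (Thrsp). For ageing they were -0.416 to 0.14 (Me1) and -0.521 to 0.173 (Elovl5), for mutant age -0.242 to 0.117 (Acly), -0.17 to 0.08 (Me1) and -0.063 to 0.32 (Srebf1), and for the interaction -0.181 to 0.502 (Elovl6). Of 37 named calls of genes outside the set, 19 held under all alternatives and 0 reversed. Genes near 0 counts in 1 group, such as Npas2 and Elovl3, had standard errors of up to 1.19 and 0.76 in the restriction comparisons. For the interaction these were 1.56 and 1.04. The lower levels of such genes rest on few reads at this depth.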
